A study of Homo sapiens with 6 samples.

Results

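The genes described here are the 3 enzymes that make serine, PHGDH, PSAT1 and PSPH, and 7 carriers that move it. The carriers are the mitochondrial sideroflexins SFXN1, SFXN2 and SFXN3 and the plasma membrane carriers SLC1A4, SLC1A5, SLC38A1 and SLC38A2. These 10 genes were taken by symbol from a count table of 25737 rows, and each symbol stood on 1 row. RNA came from U87MG, an established human glioblastoma line labelled as naive, and was read at the 3′ ends of polyadenylated transcripts. One condition, called deprived, was DMEM without serine and glycine for 24 h (3 libraries), and the other, called complete, was DMEM with both amino acids for the same time (3 libraries). All cells had been maintained with fetal bovine serum, and the labels do not say whether the test media held serum or whether replicates were separate cultures. The p-values therefore rest on a spread between libraries that may be technical in origin.

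Cells make serine from 3-phosphoglycerate, an intermediate of glycolysis. PHGDH oxidises it, PSAT1 moves an amino group from glutamate onto the product, and PSPH removes the phosphate. Serine from the medium enters through sodium-dependent carriers of small neutral amino acids, and sideroflexins take it into mitochondria, where it gives glycine and one-carbon units. When amino acids run short, the transcription factor ATF4 is translated and is known to raise the transcripts of serine synthesis and of several carriers.

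Total counts ran from 7001929 to 7102846 in the deprived and from 6249706 to 7247995 in the complete libraries. The glioma and neural markers VIM (5110 to 6914 CPM) and CD44 (542 to 862 CPM) were high, whereas SOX2 and GFAP stayed below 1 CPM. CPM is the count per 1000000 counts of the library after TMM scaling, a share, so that fewer cells with a transcript and less of it per cell cannot be told apart. CDKN2A and CDKN2B, a locus known to be deleted in U87MG, had 0 counts in all 6 libraries. The summed leukocyte markers reached 0.709 CPM and the summed epithelial markers 1.66 CPM, with CD3D, CD3E, CDH1 and KRT5 at 0 counts, although the growth protocol calls the cells epithelial. NES measured 42.3 to 68.0 CPM and OLIG2 1.52 to 6.86 CPM. Neuronal markers summed to 56.6 to 74.6 CPM, nearly all from SNAP25 (25.5 to 42.4 CPM) and SYT1 (31.1 to 37.3 CPM), with RBFOX3 below 1 CPM. Oligodendrocyte markers summed to 5.12 to 9.18 CPM, from MBP with MOG near 0, and endothelial markers to at most 3.44 CPM. MOG stood on 8 rows, and only the first was read.

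The libraries did not divide by label. On the first principal component of all tested genes, which held 51.4% of the variance, deprived 1, deprived 3 and complete 1 lay at -20.5, -21.1 and -22.1. Deprived 2, complete 2 and complete 3 lay at 21.4, 20.5 and 21.8. The deposited table gives its columns in the order deprived 1, complete 1, deprived 3, deprived 2, complete 2, complete 3, so the division falls between column 3 and column 4. Columns were assigned to conditions by their names alone, and what produced the division was not tested. Because of it, libraries are named below wherever a value turns on them. Differences by label of the 10 genes are also given without deprived 2 and complete 1, which were picked by their values. So are counts for the other lists, except those of cell type markers.

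By label, edgeR's quasi-likelihood test called 0 of the 10 genes at an adjusted p of 0.05, where 0% of 13068 tested genes passed. None of the 10 had an unadjusted edgeR p under 0.05 either, against 1.89% of all tested genes. The deprived and complete libraries overlapped in each of the 10, whereas 6.97% of tested genes showed no overlap, 3.48% with deprived higher and 3.49% with deprived lower. For 7 of the 10, the libraries with the most transcript were deprived 1, deprived 3 and complete 1 (18.3% of tested genes). SFXN1 was lowest in those libraries (17.7% of tested genes). The remaining pair, SFXN2 and SFXN3, followed neither order.

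**Figure D1:**
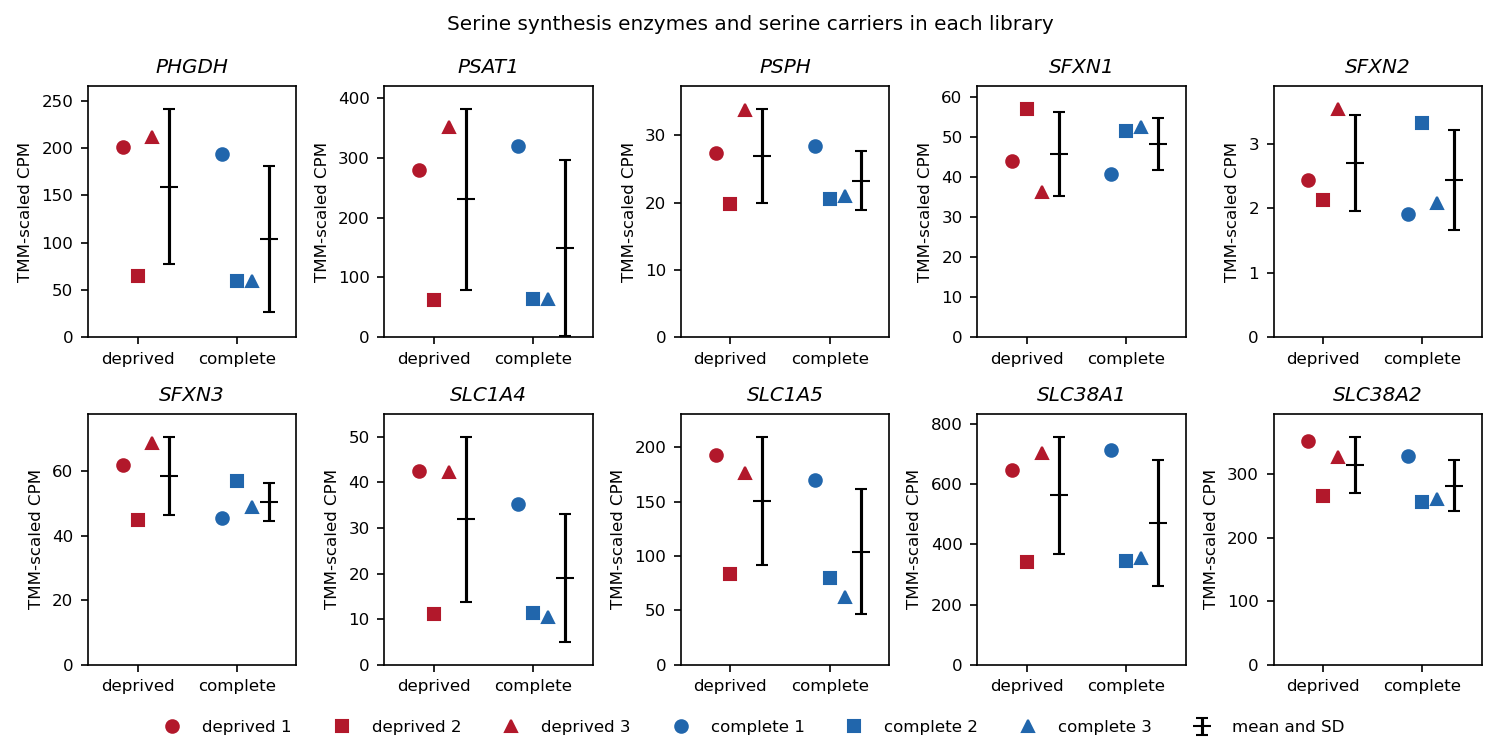
TMM-scaled CPM of each gene (vertical axes, from 0) in the 3 deprived libraries (red, left) and the 3 complete libraries (blue, right), with the replicate number given by the marker and the black bars showing mean and SD by label. Deprived 2 (red square) sits with complete 2 and 3, and complete 1 (blue circle) with deprived 1 and 3, for the synthesis enzymes and the plasma membrane carriers.

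Among the synthesis enzymes, the abundance of PHGDH was 201, 64.4 and 212 CPM in deprived 1, 2 and 3, against 193, 59.4 and 59.0 CPM in complete 1, 2 and 3. The highest library had 3.60 times the lowest, and ranking the libraries left the widest step, 1.58 on the log2 scale, between complete 1 and deprived 2. Within the lower libraries the values lay between 59.0 and 64.4 CPM, so that the spread inside each set was small beside the step between them. The difference by label was 0.62 log2 units with a standard error of 0.52 (edgeR unadjusted p = 0.264, adjusted p = 0.999).

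PSAT1 had the widest range of the 10 genes. It measured 279, 61.4 and 352 CPM in deprived 1, 2 and 3, against 320, 64.4 and 64.3 CPM in complete 1, 2 and 3, a highest-to-lowest ratio of 5.74. Its label means of 231 ± 151 CPM for deprived and 150 ± 148 CPM for complete (SD, n = 3 each) differed by less than either standard deviation, and the label difference was 0.63 log2 units with a standard error of 0.70. Complete 1 exceeded deprived 1 for this gene. PSPH was less variable, at 27.4, 19.8 and 33.7 CPM in deprived 1, 2 and 3, against 28.4, 20.5 and 20.9 CPM in complete 1, 2 and 3. The step between its higher and lower libraries was 0.39 log2 units, and its highest library had 1.71 times its lowest. By label PSPH differed by 0.22 log2 units with a standard error of 0.21. PSAT1 has 4 and PSPH has 1 named pseudogene in GENCODE 29, none of which has a row in the table, so reads from such copies may be counted with either gene.

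The enzymes of this short pathway did not scale together. Within a library, the count of PSAT1 per count of PHGDH was 1.39, 0.954 and 1.66 in deprived 1, 2 and 3, against 1.66, 1.08 and 1.09 in complete 1, 2 and 3. This ratio does not depend on how libraries are scaled. The count of PSPH per count of PHGDH ran the other way, at 0.136, 0.307 and 0.159 in deprived 1, 2 and 3, against 0.147, 0.345 and 0.355 in complete 1, 2 and 3. In deprived 1, deprived 3 and complete 1, PSAT1 was therefore higher and PSPH lower relative to PHGDH than in each of the other libraries.

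The promoter windows of PHGDH and PSAT1, the enzymes with the widest ranges, are printed from RefSeq (GRCh38.p14), 250 bases before to 50 after the transcript start, both from the same strand as the gene. The windows were searched on both strands for TGATGNAA, the core of the element bound by ATF4 with its C/EBP partners, and neither holds it.
PHGDH (chr1:119711684-119711983, plus strand): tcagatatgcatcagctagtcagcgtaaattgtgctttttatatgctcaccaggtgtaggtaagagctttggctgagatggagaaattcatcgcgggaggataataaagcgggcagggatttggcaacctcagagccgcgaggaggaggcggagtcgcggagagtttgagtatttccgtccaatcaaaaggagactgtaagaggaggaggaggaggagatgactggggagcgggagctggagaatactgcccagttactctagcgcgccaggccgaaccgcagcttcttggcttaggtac
PSAT1 (chr9:78296875-78297174, plus strand): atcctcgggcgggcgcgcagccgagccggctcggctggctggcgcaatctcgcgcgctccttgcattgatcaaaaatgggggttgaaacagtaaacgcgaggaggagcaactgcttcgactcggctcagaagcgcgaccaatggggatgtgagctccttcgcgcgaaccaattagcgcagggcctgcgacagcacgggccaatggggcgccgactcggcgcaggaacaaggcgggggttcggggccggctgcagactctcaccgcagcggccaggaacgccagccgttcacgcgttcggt

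Windows were available for 9 of the 10 genes, PSPH having none, and several genes have more than 1 start. A match to TGATGNAA stood in 3 of these 9 genes, against 4.46% of 27305 genes with windows of that length, and all 3 are plasma membrane carriers. These 3 are also the only genes of the 9 with more than 1 window, so more sequence was searched for them. By window, the match stood in 3 of 13, against 3.62% of 35116 windows. Windows of ATF4, CBS, SLC6A9, SLC7A8, SLC38A6, SLC38A7 and SARS (SARS1 in RefSeq), searched in the same way, held no match. The matched windows are printed with the match in capitals, as read along the gene's own strand. In SLC1A4 the match ends at the more downstream of its listed transcript starts, in reverse orientation. In SLC1A5 it lies from 97 to 90 bases before a start inside the gene. In SLC38A1 it spans the more downstream of the listed starts. No match in the other windows says only that these letters are not in them, and a match is not evidence of binding.
SLC1A4 (chr2:64989149-64989448, plus strand): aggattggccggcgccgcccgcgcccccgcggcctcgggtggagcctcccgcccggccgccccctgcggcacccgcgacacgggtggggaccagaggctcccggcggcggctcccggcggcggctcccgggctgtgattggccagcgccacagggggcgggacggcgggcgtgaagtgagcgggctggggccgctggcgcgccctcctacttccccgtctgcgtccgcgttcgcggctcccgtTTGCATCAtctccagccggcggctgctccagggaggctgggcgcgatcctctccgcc
SLC1A5 (chr19:46784765-46785064, minus strand): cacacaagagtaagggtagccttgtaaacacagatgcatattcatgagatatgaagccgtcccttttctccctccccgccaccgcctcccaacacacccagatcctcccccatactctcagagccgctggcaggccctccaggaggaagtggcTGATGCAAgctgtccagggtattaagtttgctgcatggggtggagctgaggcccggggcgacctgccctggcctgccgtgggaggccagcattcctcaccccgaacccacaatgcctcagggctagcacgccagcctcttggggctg
SLC38A1 (chr12:46266467-46266766, minus strand): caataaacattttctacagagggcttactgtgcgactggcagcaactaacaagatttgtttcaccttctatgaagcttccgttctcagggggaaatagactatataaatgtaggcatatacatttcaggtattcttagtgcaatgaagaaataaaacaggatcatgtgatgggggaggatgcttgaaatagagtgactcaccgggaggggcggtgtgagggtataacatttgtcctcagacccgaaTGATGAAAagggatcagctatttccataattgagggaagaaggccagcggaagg
The E-box CACGTG, which reads the same on both strands, was found in windows of SFXN2 and SLC1A5, 2 of the 9 genes, against 8.77% of all genes. TGACNNNGC, the core bound by NFE2L2, was found in windows of SFXN3 and SLC1A5, 2 of the 9 genes, against 16.1% of all genes. For SLC1A5, which had 3 windows, both of these matches lie in a window other than the one printed.

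Among the plasma membrane carriers, SLC1A4, an exchanger of alanine, serine and cysteine, was the carrier closest to PHGDH in its pattern. It was measured at 42.4, 11.1 and 42.4 CPM in deprived 1, 2 and 3, against 35.2, 11.5 and 10.4 CPM in complete 1, 2 and 3. Its highest library had 4.08 times its lowest, and its label difference of 0.76 log2 units (standard error 0.55) was the largest of the 10 genes without passing the test (edgeR adjusted p = 0.999). SLC1A5, the related exchanger that carries glutamine as well as serine, had 193, 83.3 and 177 CPM in deprived 1, 2 and 3, against 170, 79.6 and 62.7 CPM in complete 1, 2 and 3. Both genes had the same libraries on top, with a wider step for SLC1A4 (1.62 log2 units) than for SLC1A5 (1.03 log2 units). By label SLC1A5 differed by 0.54 log2 units with a standard error of 0.39.

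The count of SLC1A4 per count of SLC1A5 was 0.220, 0.133 and 0.240 in deprived 1, 2 and 3, against 0.207, 0.144 and 0.166 in complete 1, 2 and 3.

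SLC38A1 and SLC38A2 encode sodium-coupled carriers of small neutral amino acids, and both lie on the minus strand of chromosome 12. The SLC38A1 level was 646, 340 and 701 CPM in deprived 1, 2 and 3, against 711, 344 and 354 CPM in complete 1, 2 and 3, and complete 1 was its highest library. SLC38A2, whose protein is known to accumulate when amino acids are withdrawn, had 352, 266 and 327 CPM in deprived 1, 2 and 3, against 328, 256 and 261 CPM in complete 1, 2 and 3. The highest-to-lowest ratio was 2.09 for SLC38A1 and 1.38 for SLC38A2, the smallest of the 10 genes. By label the difference was 0.26 log2 units (standard error 0.32) for SLC38A1 and 0.16 log2 units (standard error 0.13) for SLC38A2. The count of SLC38A1 per count of SLC38A2 accordingly shifted between libraries, at 1.83, 1.28 and 2.15 in deprived 1, 2 and 3, against 2.17, 1.35 and 1.35 in complete 1, 2 and 3.

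**Figure D2:**
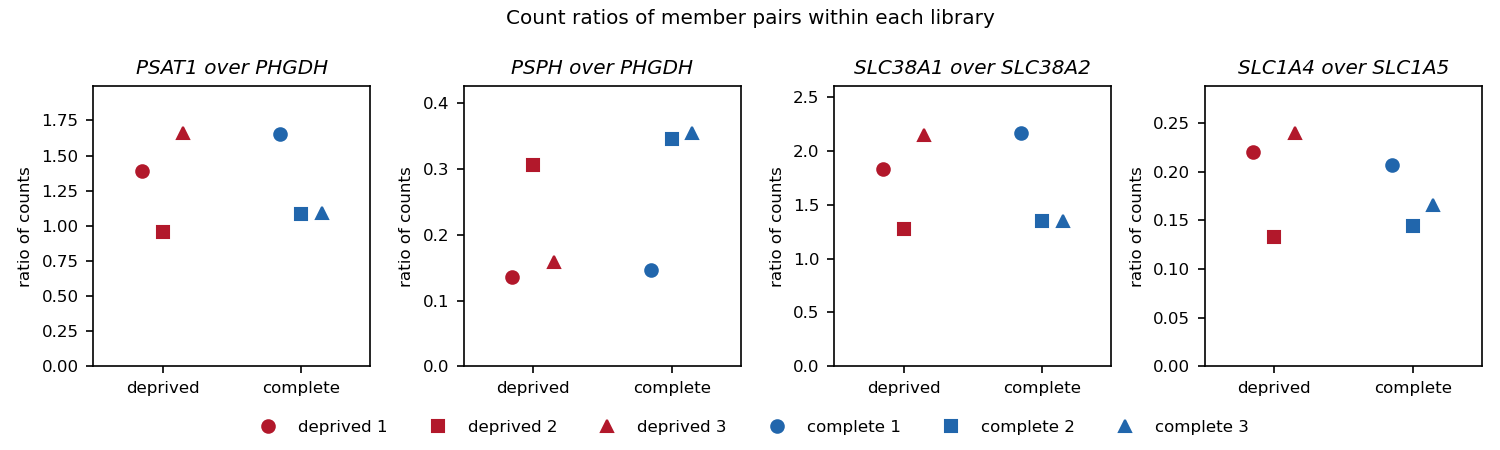
Ratio of the raw counts of 4 gene pairs within each library (vertical axes, from 0), for the deprived (red, left) and complete (blue, right) libraries. Each pair splits deprived 1, deprived 3 and complete 1 from the other libraries, with PSPH over PHGDH lower there and the other ratios higher.

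None of the 3 sideroflexins showed the order of the other 7 genes. SFXN1, the main carrier of serine into mitochondria, was measured at 44.2, 57.1 and 36.4 CPM in deprived 1, 2 and 3, against 40.8, 51.5 and 52.6 CPM in complete 1, 2 and 3. It was lowest in the libraries where the enzymes were highest, with a step of 0.22 log2 units between the sets and a label difference of -0.07 (standard error 0.17). SFXN3, a related carrier known to take over part of this transport in human cells, had 61.9, 45.1 and 68.8 CPM in deprived 1, 2 and 3, against 45.4, 56.9 and 49.0 CPM in complete 1, 2 and 3. Here deprived 2 and complete 1 stood together at the low end, and the label difference was 0.21 log2 units (standard error 0.16).

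SFXN2 was near the limit of what this depth resolves, with 17, 15 and 25 counts in deprived 1, 2 and 3, against 12, 24 and 14 counts in complete 1, 2 and 3. Its highest value, 3.55 CPM in deprived 3, had an exact 95% Poisson interval of 2.29 to 5.23 CPM, and its lowest, 1.91 CPM in complete 1, one of 0.989 to 3.34 CPM. The intervals, which cover counting error only, overlap. Summed over the 3 sideroflexins, the level was 109, 104 and 109 CPM in deprived 1, 2 and 3, against 88.2, 112 and 104 CPM in complete 1, 2 and 3. The 4 plasma membrane carriers summed to 1233, 701 and 1247 CPM in deprived 1, 2 and 3, against 1244, 691 and 688 CPM in complete 1, 2 and 3.

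Differences by label therefore depended on which libraries were kept. With all libraries, 9 of the 10 log2 fold changes were positive, as were 51% of those of all tested genes, and their median was 0.24, beside 0.00 over all tested genes. Without complete 1, the difference grew to 1.43 for PHGDH, 1.84 for PSAT1 and 1.54 for SLC1A4, and 6 of the 10 genes had an unadjusted edgeR p under 0.05 (8.59% of all genes in that fit), but 0 passed after adjustment. Leaving out deprived 2 gave 4 such genes (7.8% of all genes in that fit) and again 0 after adjustment. Each other removal made the differences of PHGDH, PSAT1 and SLC1A4 smaller than with all libraries. PHGDH was 0.41 without deprived 1, 0.36 without deprived 3, 0.34 without complete 2 and 0.34 without complete 3. PSAT1 fell to 0.19 without deprived 3. In those fits 0 of the 10 genes had an unadjusted edgeR p under 0.05, as did 130 to 181 of all genes.

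With both of these libraries left out, 8 of the 10 genes passed an edgeR adjusted p of 0.05, 7 higher and 1 lower in deprived medium. In that fit 15.9% of 13145 genes passed, 8.57% higher and 7.38% lower. Since the libraries were picked by their values, these counts describe the remaining 4 libraries and are no independent test of the medium. The difference was 1.80 ± 0.08 log2 units for PHGDH, 2.29 ± 0.09 for PSAT1 and 0.56 ± 0.15 for PSPH (value ± standard error). For the carriers it was 1.95 ± 0.16 for SLC1A4, 1.37 ± 0.09 for SLC1A5, 0.95 ± 0.07 for SLC38A1, 0.39 ± 0.07 for SLC38A2 and -0.37 ± 0.12 for SFXN1. SFXN3 had 0.30 ± 0.11 (edgeR adjusted p = 0.0567) and SFXN2 had 0.14 ± 0.43 (edgeR adjusted p = 0.883), both short of the threshold.

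**Figure D3:**
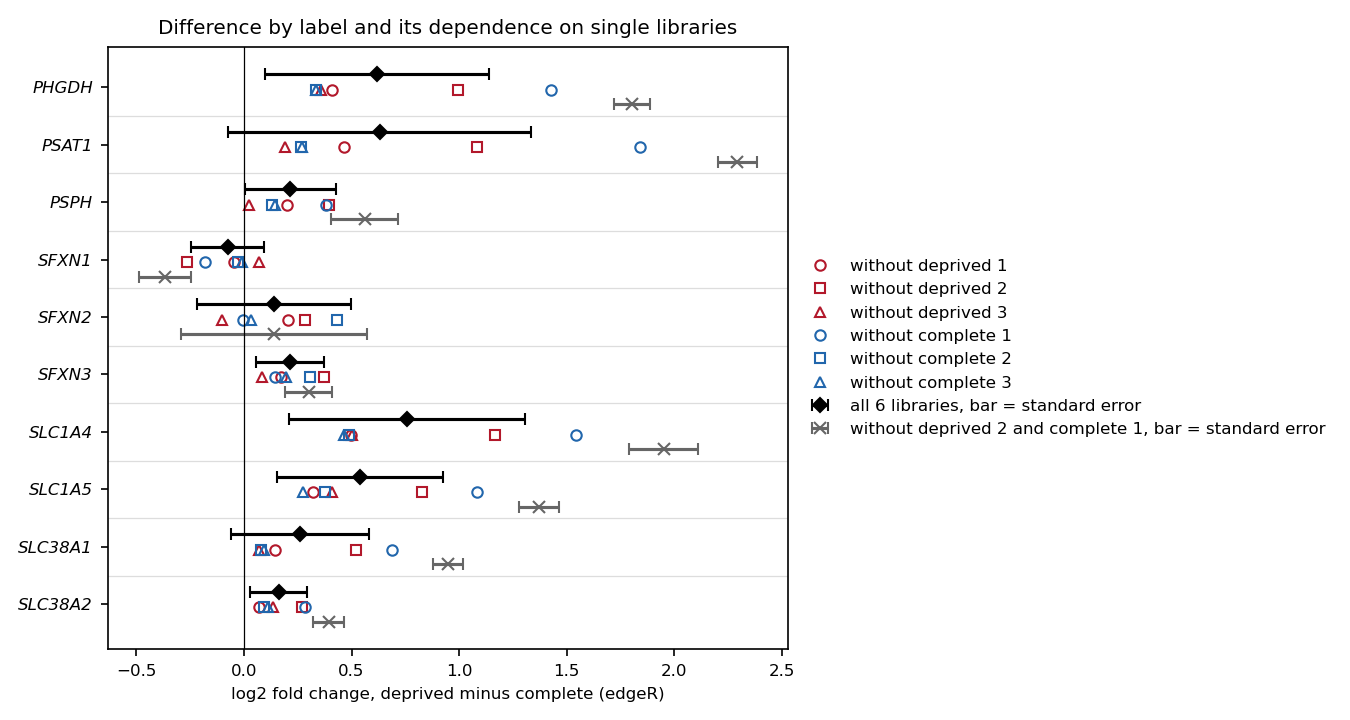
Log2 fold change, deprived minus complete, from edgeR (horizontal axis) for each gene, with all 6 libraries (black diamonds, bars are standard errors), with 1 library left out (open markers) and without deprived 2 and complete 1 (grey crosses, bars are standard errors). For PHGDH the value is 0.62 with all libraries, 0.34 without complete 2, 1.43 without complete 1 and 1.80 without both. SFXN2 is 0.14 in the first and the last of these fits, within its standard error of 0.

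Of 16 other sideroflexin, SLC1 and SLC38 genes, 9 were abundant enough to test, 0 were called by label, and 5 had 0 counts in every library. The order of PHGDH was seen in 2 of the 9 tested and its reverse in 1, shares near those of all tested genes (18.3% and 17.7%). Without deprived 2 and complete 1, edgeR called 2 higher and 1 lower in deprived medium, where 15.9% of all genes were called. SLC38A7, a lysosomal carrier of glutamine, had 36.9, 20.5 and 40.1 CPM in deprived 1, 2 and 3, against 37.9, 18.8 and 17.1 CPM in complete 1, 2 and 3. SLC38A6, the other relative with its highest values in deprived 1, deprived 3 and complete 1, ranged from 56.3 to 108 CPM. SLC1A1, a glutamate and cysteine carrier, was lowest in those libraries, at 4.59, 9.67 and 5.25 CPM in deprived 1, 2 and 3, against 4.62, 10.3 and 7.28 CPM in complete 1, 2 and 3. SFXN4, SFXN5, SLC1A3, SLC38A4, SLC38A9 and SLC38A10 followed neither order.

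Of 13 genes that use serine, 12 were tested and 0 were called by label. In 4 of the 12, deprived 1, deprived 3 and complete 1 were highest, and in 2 they were lowest. The shares of all tested genes are 18.3% and 17.7%. With deprived 2 and complete 1 left out, edgeR called 3 higher and 2 lower, where 8.57% and 7.38% of all genes were called. CBS, which joins serine to homocysteine on the way to cysteine, had 133, 15 and 188 counts in deprived 1, 2 and 3, against 128, 9 and 9 counts in complete 1, 2 and 3. Its highest library had 21.4 times the CPM of its lowest, more than for each of the 10 genes, and the difference without deprived 2 and complete 1 was 4.13 log2 units (standard error 0.30), but CBS has a near-identical annotated copy and its counts are uncertain. SARS, the cytosolic enzyme that charges tRNA with serine, lay at 408, 280 and 474 CPM in deprived 1, 2 and 3, against 445, 261 and 264 CPM in complete 1, 2 and 3. SHMT2 and SPTLC2 shared the order with them. PTDSS1 and SRR, which make phosphatidylserine and D-serine, had their lowest values in deprived 1, deprived 3 and complete 1, PTDSS1 between 78.3 and 110 CPM overall and SRR between 37.4 and 64.0 CPM. SPTLC1, a subunit of the enzyme that starts sphingolipid synthesis from serine, was the 1 of the 12 tested without overlap by label, where the share of all tested genes is 6.97%. It measured 94.4, 101 and 102 CPM in deprived 1, 2 and 3, against 90.9, 89.7 and 93.4 CPM in complete 1, 2 and 3 (log2 fold change 0.12, standard error 0.08, edgeR adjusted p = 0.999).

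Among 7 other carriers of small neutral amino acids, 4 were tested and 0 called by label. Leaving out deprived 2 and complete 1 gave 2 higher and 0 lower by edgeR, against 8.57% and 7.38% of all genes. SLC6A9, a glycine carrier, had 15.1, 3.41 and 15.9 CPM in deprived 1, 2 and 3, against 18.0, 3.88 and 6.09 CPM in complete 1, 2 and 3, so complete 1 was its highest library. SLC7A8, a carrier of neutral amino acids, was also highest in complete 1, at 65.5, 24.2 and 63.5 CPM in deprived 1, 2 and 3, against 74.8, 25.6 and 27.5 CPM in complete 1, 2 and 3. SLC36A1, a lysosomal and surface carrier of small amino acids, stayed between 15.6 and 18.5 CPM, and SLC25A38, the mitochondrial glycine carrier, between 25.3 and 31.2 CPM.

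The glycolytic enzymes around 3-phosphoglycerate were steady in the same libraries, and 0 of 3 were called by label or without deprived 2 and complete 1. In the latter fit 15.9% of all genes were called. PGK1, which makes 3-phosphoglycerate, lay between 317 and 364 CPM, and ENO1, further along the pathway, between 1883 and 2085 CPM. Their highest-to-lowest ratios were 1.15 and 1.11. PGAM1, which draws it away from serine synthesis, measured 110, 129 and 115 CPM in deprived 1, 2 and 3, against 112, 135 and 128 CPM in complete 1, 2 and 3, lowest in deprived 1, deprived 3 and complete 1. ATF4 stood at 409, 162 and 477 CPM in deprived 1, 2 and 3, against 414, 174 and 154 CPM in complete 1, 2 and 3, the order of PHGDH. Its label difference was 0.50 log2 units (standard error 0.44) with all libraries and 1.43 (standard error 0.08) without deprived 2 and complete 1. NFE2L2, the factor of the antioxidant response, ranged from 133 to 182 CPM in that order too. MYC did not, its lowest value of 11.5 CPM being in deprived 1. The order thus held in 2 of these 3 factors, against 18.3% of all tested genes. By label edgeR called 0 of the 3. Without deprived 2 and complete 1 it called 2 higher and 0 lower, against 8.57% and 7.38% of all genes.

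**Figure D4:**
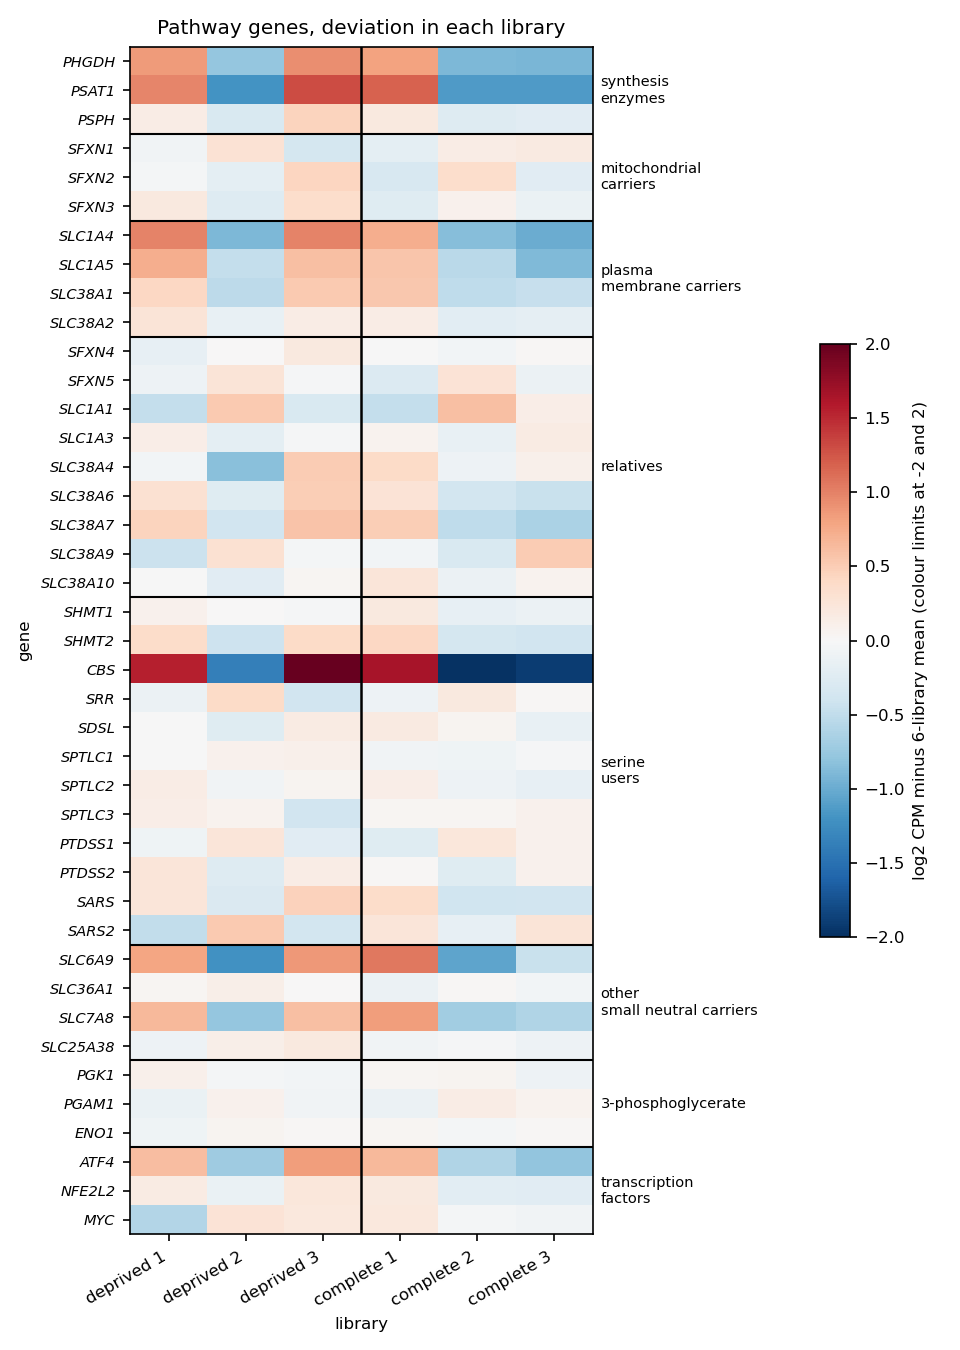
Deviation of log2 CPM from the mean of the 6 libraries (colour, red higher and blue lower, limits at -2 and 2) for the tested genes of each list (rows) in the deprived and complete libraries (columns, separated by the line). PHGDH, PSAT1, SLC1A4, SLC1A5, CBS, SLC6A9, SLC7A8 and ATF4 are red in deprived 1, deprived 3 and complete 1 and blue in the rest, while PGK1 and ENO1 stay pale. CBS exceeds the colour limits in deprived 3 only, at 2.03.

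Across all tested genes with a mean of at least 10 CPM, likeness was measured as the root mean square difference of log2 deviations over the 6 libraries. The gene closest to PHGDH was FBXO32, a ubiquitin ligase subunit, at 0.042 log2 units, with 123, 39.2 and 121 CPM in deprived 1, 2 and 3, against 120, 36.0 and 34.5 CPM in complete 1, 2 and 3. RPS6KA2, TNFRSF9, SLC1A4 and GPNMB followed, at 0.0769 to 0.105 log2 units. SLC38A2 was closest to HLA-E, a major histocompatibility protein, at 0.024 log2 units, and then to TAZ as the table spells it, BNIP3L, CRBN and BCAT1, at 0.0289 to 0.0325 log2 units. With 6 libraries in 2 sets, such likeness says mainly that genes share the division and its size.

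Some RNAs outside the serine genes moved with the division. MALAT1, an abundant nuclear RNA, took 3.24%, 1.93% and 3.11% of counts in deprived 1, 2 and 3, against 2.75%, 1.92% and 1.90% in complete 1, 2 and 3. The summed glioma and neural markers were 5702, 7721 and 6017 CPM in deprived 1, 2 and 3, against 6032, 7643 and 7785 CPM in complete 1, 2 and 3, mostly VIM. SNAP25 was at 31.0, 42.4 and 31.6 CPM in deprived 1, 2 and 3, against 25.5, 40.7 and 38.9 CPM in complete 1, 2 and 3. The part of any of these in the levels of the enzymes and carriers was not tested.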

How the data were processed

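The deposited table holds unnormalized read counts by gene symbol for 6 libraries, which the authors made from total RNA with a QuantSeq 3′ mRNA kit, per the labels' protocols. Bowtie2 is named in the submitters' processing notes. The counting program, genome build, annotation and strand setting were not given in the sources used here. Columns were matched to samples by name, with 0 left unmatched.

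Counts were fitted with edgeR 4.0.16 in R 4.3.3, using filterByExpr (minimum count 10), scaled by TMM and tested by quasi-likelihood for deprived against complete, with Benjamini-Hochberg adjustment over all 13068 tested rows and a threshold of 0.05. Standard errors came from that fit, and a prior count of 3 was added for log2 CPM. A count of 3 corresponded to 0.414 to 0.480 CPM before TMM scaling. Counts from 3′ ends do not scale with transcript length, and levels were compared between libraries. The pipeline was run on simulated counts with the same relative spread for every gene and no division of the libraries. It recovered 44.8% of 1.5-fold, 88.1% of 2-fold and 100% of 4-fold changes. Since the libraries here are divided, these shares do not say what would be recovered in these data. Alternatives included DESeq2 1.42.0 and limma 3.58.1. Named genes were all members of the lists, plus the 5 nearest to PHGDH and to SLC38A2. Members and lists were chosen with earlier results of these data known. Promoter windows came from RefSeq GRCh38.p14 and pseudogene names from GENCODE 29. A result on an item withheld here is not reported. Figures used Matplotlib 3.10.9.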

Additional observations from a re-analysis of the deposited data

How the results depend on the processing

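Neither the 10 genes nor any other gene was called by label (0 each) under other scalings, with no or a stricter filter, with DESeq2, with limma-voom, with shared symbols summed, or with 1 library left out (0 to 0). With no filter edgeR gave 393 of 19472 genes an unadjusted p under 0.05, DESeq2 gave 140 of 19472 and limma-voom 251 of 13068. SFXN2 was not tested under the stricter filter. A replicate block in the fit left 0 genes called, and 3 of the 10 had an unadjusted p under 0.05, as did 429 of 13068 genes. The numbers were not taken as pairs, because the labels do not say that they are. Deviations of libraries with the same number correlated at 0.384, 0.381 and -0.281 across genes, and those of deprived 2 and complete 3 at 0.419. These signs follow the division of the libraries, so the correlations cannot show whether the numbers are pairs. Without deprived 2 and complete 1, a fit added after the data were seen, 8 of the 10 genes and 2096 of all genes were called, and the median log2 fold change of the 10 was 0.76. With 1 library left out that median ran from 0.11 to 0.53. SFXN1 ran from -0.26 to 0.07, turning positive at 0.068 without deprived 3, and SFXN2 from -0.10 to 0.43, turning negative at -0.10 without deprived 3 and at -0.0040 without complete 1; the cause was not tested. The 5 genes closest to SLC38A2 were the same at prior counts of 0.5 and 10, and 4 of 5 were for PHGDH. Depth limits genes such as SFXN2.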
